A study of Danio rerio with 12 samples.

Results

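UDP-glucuronosyltransferases (UGT) and cytosolic sulfotransferases (SULT) were followed in RNA of entire zebrafish larvae, wild type and 4 days old, counted from fertilisation. The members were the rows of the deposited expression table whose gene symbol begins with ugt or sult followed by a digit. The rule found 52 of the 44667 rows, 32 of them UGT and 20 SULT, under 49 symbols, because ugt2a7 stood on 3 rows and sult3st3 on 2. Larvae exposed to 20 mg/L PFOS gave the PFOS20 group (replicates 2, 3 and 4). Larvae in 20 mg/L OBS gave the OBS20 group (replicates 1, 2 and 3), larvae in 30 mg/L OBS the OBS30 group (replicates 1, 3 and 4), and untreated larvae the control group (replicates 2, 3 and 4). All 4 groups share the wild-type genotype, the age and the use of whole larvae, while strain, exposure period, vehicle and pooling are not given in the sources used here. PFOS is a surfactant with a saturated perfluoroalkyl chain on a sulfonate group, and OBS is an alternative to it that carries a perfluorinated alkenyl chain joined through oxygen to a benzenesulfonate. By its title the series deals with histological, oxidative and immune changes under OBS.

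Both families carry out phase II metabolism. A UGT moves glucuronic acid from UDP-glucuronate to a small lipophilic molecule in the endoplasmic reticulum, and a SULT moves sulfate from the cofactor PAPS to one in the cytosol. The products are more soluble and leave the cell through export pumps. In mammals UGT1 enzymes handle bilirubin and phenols, UGT2 enzymes steroids and odorants, SULT1 enzymes phenols, catechols and thyroid hormone, and SULT2 enzymes hydroxysteroids. The UGT5 family is known from fish, and UGT8 adds galactose to ceramide in myelin rather than taking part in detoxification. Liver and intestine are the main sites of these enzymes.

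The unit is TPM, which scales reads by transcript length and gives each gene as a share of its library. Depth cannot be read from TPM, so the number of reads behind a value is unknown and precision comes from the spread between libraries. A change is a difference between group means of log2(TPM + 1), its error (±, SE) comes from 1 limma model of all 12 libraries, and a call is a Benjamini-Hochberg adjusted p below 0.05 over the 30674 genes and loci tested. The labels do not say whether replicates came from separate clutches, so p-values measure only the spread between these samples. The 3 comparisons with control share the same 3 control libraries and are given side by side. Over the rows tested, the median TPM was 3.55 to 4.5 in PFOS20, 3.16 to 4.99 in OBS20, 4.24 to 5.08 in OBS30 and 4.58 to 4.68 in control. The lowest of these, 3.16, belonged to OBS20 replicate 3. Without that library 6491 rows were called between OBS20 and PFOS20, against 2996 with it.

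All 52 members were accounted for. The filter, at least 1 TPM in at least 3 libraries, passed 42 of them, 22 UGT and all 20 SULT. The 10 UGT rows below it were ugt1b3, ugt1b4, ugt1b6p, ugt1b7, ugt5b5, ugt5c1, ugt5c2, ugt5e1, ugt5g2 and 1 of the 3 ugt2a7 rows (ENSDARG00000110614). That ugt2a7 row was listed at 0 in all 12 libraries, and none of the 10 exceeded 1.17 TPM in any library. Each member that passed reached 1 TPM in the libraries of more than 1 group. Without the control libraries sult1st2, sult3st5 and ugt1b2 would not have passed, nor would sult3st3 (ENSDARG00000042920) without the PFOS20 libraries. The sult1st2 and sult3st5 calls thus concern members that passed through control, the group where they were highest. Several members are close copies of each other, so reads may have been divided between them, above all within ugt1b, ugt2a, sult1st and sult3st.

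A few members held most of each family's transcripts. Summed over its 32 rows the UGT family stood at 243 ± 36.6 TPM in PFOS20, 296 ± 60.5 in OBS20 and 281 ± 6.70 in OBS30, against 198 ± 22.0 TPM in control (SD, n = 3 each). The SULT sum was 305 ± 18.5 TPM in PFOS20, 297 ± 5.33 in OBS20 and 308 ± 3.74 in OBS30, against 334 ± 28.5 TPM in control. The SULT sums of all OBS20 and OBS30 libraries lay below every control library, and those of PFOS20 overlapped control. Single members made up different shares of these sums. The sult6b1 gene, a cytosolic sulfotransferase outside the phenol and steroid groups, made up 35.4% ± 1.38 of SULT transcripts in PFOS20, 45.7% ± 3.64 in OBS20 and 53.0% ± 1.01 in OBS30, against 22.6% ± 0.235 in control. For sult2st2, a hydroxysteroid sulfotransferase, the share was 20.3% ± 2.27 in PFOS20, 15.0% ± 0.702 in OBS20 and 9.05% ± 0.867 in OBS30, against 25.2% ± 1.59 in control. The summed ugt2 rows stood at 67.6 ± 12.5 TPM in PFOS20, 81.4 ± 18.4 in OBS20 and 90.1 ± 6.55 in OBS30, against 37.5 ± 3.29 TPM in control.

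**Figure D1:**
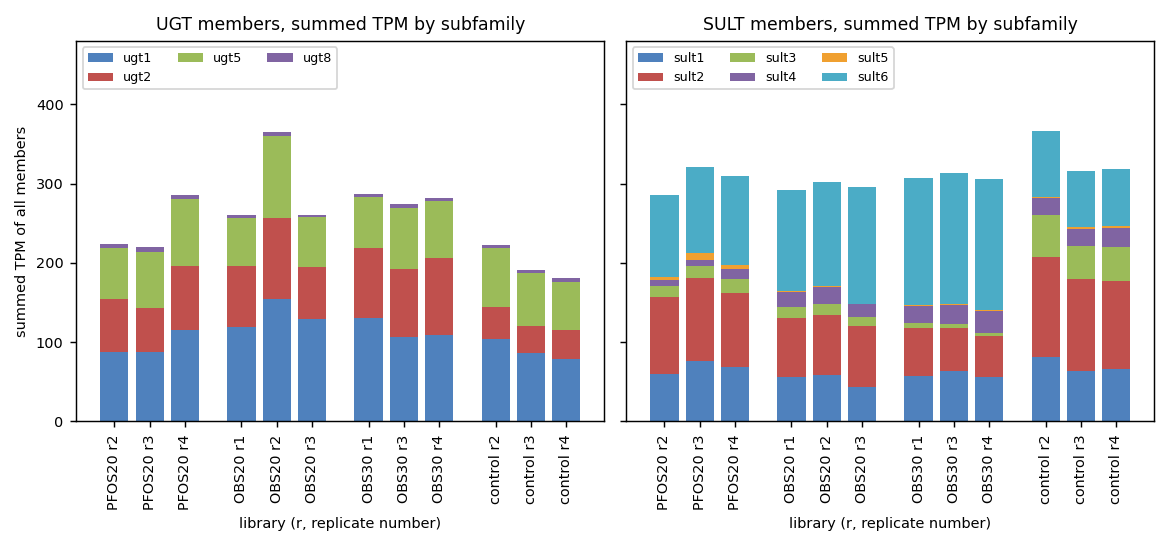
Summed TPM of all 32 UGT rows (left) and all 20 SULT rows (right) in each of the 12 libraries, stacked by subfamily, with libraries grouped as PFOS20, OBS20, OBS30 and control along the horizontal axis. The sult6 segment is taller in each exposed library than in the 3 control libraries, and the sult3 segment stands at 5.14 ± 1.08 TPM in OBS30, against 45.9 ± 6.01 TPM in control (SD, n = 3).

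Members were called in both directions in every exposure, the called UGT genes higher only and most of the called SULT genes lower. In PFOS20 5 of the 42 members tested rose and 5 fell, 23.8% of the members, where 18.3% of all genes and loci tested were called. Of all rows tested 6.35% were called higher and 11.9% lower, and the libraries of the groups did not overlap for 43.3% of rows and for 14 of the 42 members. In OBS20 3 rose and 6 fell, 21.4% of the members beside 1.49% of all rows tested. Of all rows tested 0.681% were called higher and 0.805% lower, and the libraries of the groups did not overlap for 15% of rows and for 19 of the 42 members. In OBS30 7 rose and 7 fell, 33.3% of the members beside 8.42% of all rows tested. Of all rows tested 4.73% were called higher and 3.7% lower, and the libraries of the groups did not overlap for 33.3% of rows and for 23 of the 42 members. Every called UGT was higher, with 3 in PFOS20, 2 in OBS20 and 4 in OBS30 of the 22 tested, and without OBS20 replicate 3 ugt5g1 was also called, lower in OBS30. Of the 20 SULT tested, 2 rose and 5 fell in PFOS20, 1 rose and 6 fell in OBS20, and 3 rose and 7 fell in OBS30. The lower counts in OBS20 and OBS30 include sult1st2, and that in OBS30 also sult3st5. Both members passed the filter only with the control libraries, where they were highest. The median UGT change was 0.18 in PFOS20, 0.06 in OBS20 and 0.13 in OBS30, where the median of all rows tested was -0.13, -0.08 and 0.02. The median SULT change was 0.03 in PFOS20, -0.49 in OBS20 and -0.31 in OBS30. In PFOS20 median-of-ratios scaling gave a median of all rows of 0.003. That scaling brings the median near 0 by construction, so this does not test the -0.13 as deposited. The share of all calls that were higher in PFOS20 was 34.7% as deposited, 50.1% under that scaling and 48.3% after quantile normalisation. In OBS20 it was 45.8%, 53.3% and 57.7% in the same order. The even split of members in PFOS20 depended on scaling. Median-of-ratios scaling gave 9 members higher and 4 lower there, and quantile normalisation 10 higher and 5 lower. The even split in OBS30 depended on single libraries, since leaving out 1 library gave 3 to 7 members higher and 6 to 8 lower. Across the 3 exposures 16 members were called at least once, and 7 were called in all 3. Those 7 were ugt2a1, ugt2b5 and sult6b1, higher each time, and sult1st6, sult2st2, sult3st2 and sult3st3 (ENSDARG00000094089), lower each time.

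**Figure D2:**
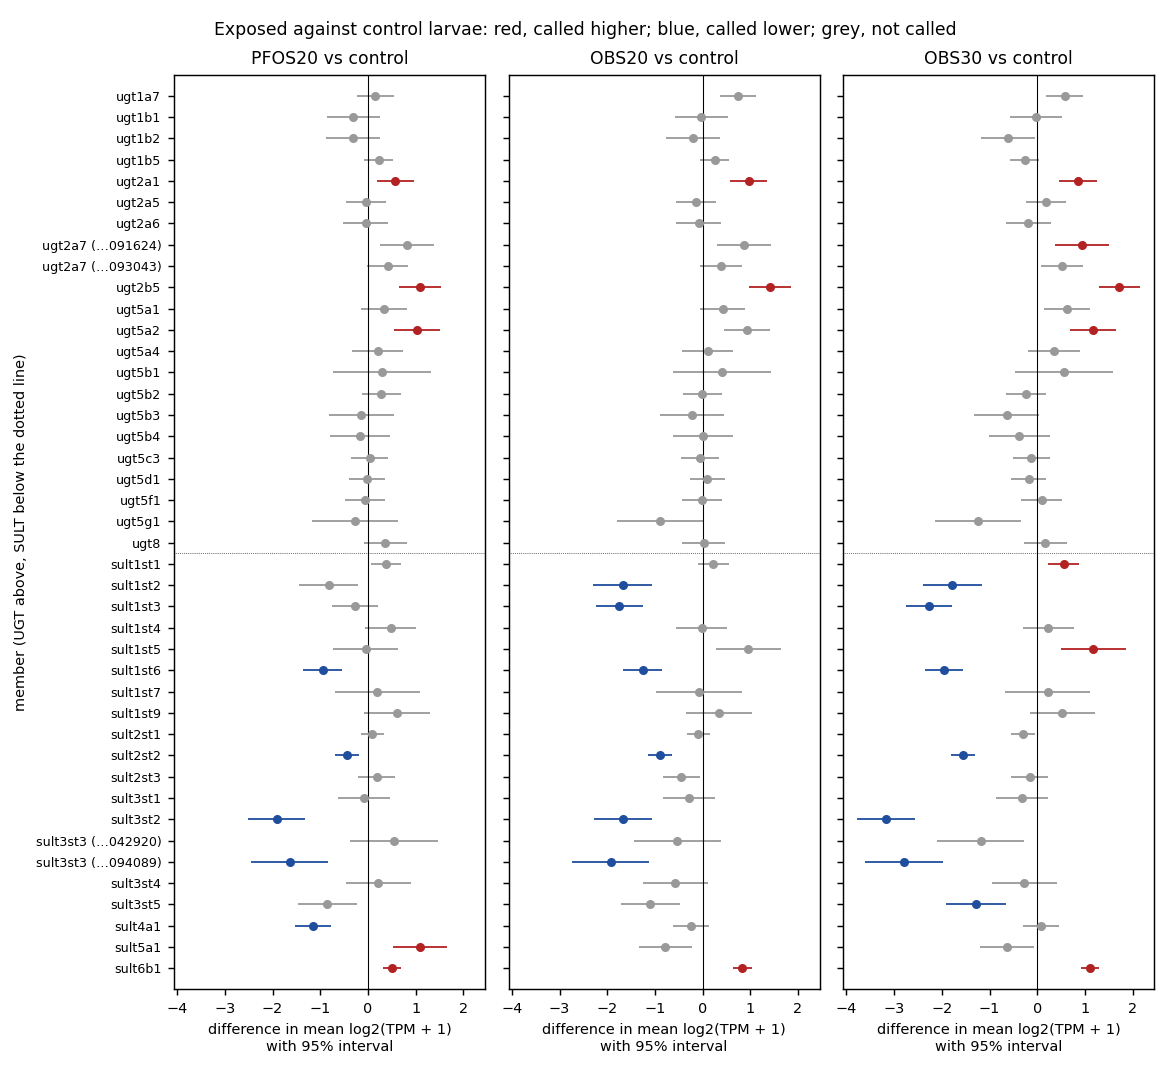
Difference in mean log2(TPM + 1) between each exposure and control for the 42 members tested, with 95% intervals, UGT above and SULT below the dotted line. Red points were called higher, blue points lower and grey points not called in the fit of all 12 libraries, and the called UGT points all lie right of 0, led by ugt2b5 at 1.72 ± 0.20 (SE) in OBS30.

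Markers of liver and gut, the main sites of these families, had lower summed TPM in exposed larvae. Over 9 hepatocyte markers the summed TPM was 3784 to 3820.0 in PFOS20, 3835 to 3911 in OBS20 and 2618 to 3222 in OBS30, against 5050.1 to 6102 in control. Of these 9, 3 fell in PFOS20, 4 in OBS20 and 6 in OBS30, and none rose. Over 9 enterocyte markers the sum was 1161 to 1357 in PFOS20, 805 to 1048 in OBS20 and 516 to 625 in OBS30, against 1654 to 2398 in control, with 2, 3 and 7 of the 9 lower in the same order and none higher. Over 8 pronephros markers the sum was 103 to 115 in PFOS20, 81.8 to 129 in OBS20 and 116 to 124 in OBS30, against 120.4 to 125 in control, with 1 higher and 1 lower in PFOS20, none called in OBS20 and 2 higher in OBS30. Over 6 skin markers the sum was 2719 to 3265 in PFOS20, 5191 to 5876 in OBS20 and 3323 to 3790.3 in OBS30, against 5318 to 5758 in control, with 4 lower and 1 higher in PFOS20, 1 higher in OBS20, and 3 lower and 1 higher in OBS30. No marker was at 0 in all libraries. The median log2 change of the hepatocyte markers was -0.39 in PFOS20, -0.70 in OBS20 and -0.69 in OBS30. For the enterocyte markers it was -0.08, -0.69 and -0.995, where the median of all rows tested was -0.13, -0.08 and 0.02. In PFOS20 the median gut marker was thus not below the median of all rows. Of all rows tested 11.9% were called lower in PFOS20, 0.805% in OBS20 and 3.7% in OBS30. The liver and gut sums were lower in every exposed library than in every control library. So was the sum of the neuron markers given below, so that in PFOS20 and OBS30 lower sums were not particular to liver and gut. In OBS20 the highest neuron sum, 847, lay just under the lowest of control, 851. None of the 8 neuron markers was called there, and the pronephros and skin sums of OBS20 overlapped control. The exposed libraries held lower sult1st6, sult2st2 and sult3st2 and higher ugt2b5, ugt2a1 and sult6b1. The part of organ markers in the member results was not tested. In RNA of whole larvae, fewer cells of a type and less RNA per cell cannot be told apart.

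Among the UGT2 genes, ugt2b5 (ENSDARG00000116986) had the largest change. It had 31.6, 25.0 and 40.0 TPM in PFOS20, 37.5, 52.4 and 31.6 TPM in OBS20 and 50.3, 44.5 and 53.4 TPM in OBS30, against 15.5, 12.7 and 14.5 TPM in control. All 9 exposed libraries lay above the 3 control libraries, by 2.26-fold in PFOS20, 2.84-fold in OBS20 and 3.47-fold in OBS30 as ratios of mean TPM. The log2 change was 1.10 ± 0.20 in PFOS20 (adjusted p = 0.004), 1.42 ± 0.20 in OBS20 (adjusted p = 0.0052) and 1.72 ± 0.20 in OBS30 (adjusted p = 3.9e-04). In a fit of only the 6 libraries compared, the OBS20 call was lost (adjusted p = 0.061).

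The ugt2a1 (ENSDARG00000051940) gene, named after the mammalian olfactory UGT2A enzymes, moved the same way with smaller changes. It had 14.7, 13.4 and 17.1 TPM in PFOS20, 18.0, 22.3 and 19.9 TPM in OBS20 and 17.4, 15.8 and 22.7 TPM in OBS30, against 12.4, 8.61 and 8.57 TPM in control. No exposed library overlapped control. It rose by 0.58 ± 0.18 in PFOS20 (adjusted p = 0.045), 0.97 ± 0.18 in OBS20 (adjusted p = 0.021) and 0.86 ± 0.18 in OBS30 (adjusted p = 0.013). The PFOS20 call did not hold without any 1 of 9 libraries, which were all but control replicate 2, OBS20 replicate 3 and OBS30 replicate 4 (adjusted p = 0.0502 to 0.14), nor with no filter on low values (0.054) or only the 6 libraries compared (0.059). The OBS20 call was lost without control replicate 3 or 4 or OBS20 replicate 1 or 2 (adjusted p = 0.054 to 0.097) or with only the 6 libraries compared (0.12), and the OBS30 call without control replicate 3 or 4 or OBS30 replicate 4 (adjusted p = 0.057 to 0.058).

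The 2 expressed ugt2a7 rows gave like values but only 1 call. The row ENSDARG00000091624 had 11.3, 7.25 and 12.01 TPM in PFOS20, 11.6, 14.7 and 6.6 TPM in OBS20 and 11.2, 12.6 and 9.43 TPM in OBS30, against 4.72, 5.4 and 5.66 TPM in control. Every exposed library lay above control, and the change was 0.81 ± 0.26 in PFOS20 (adjusted p = 0.0505), 0.88 ± 0.26 in OBS20 (adjusted p = 0.17) and 0.94 ± 0.26 in OBS30 (adjusted p = 0.048), so that it was called in OBS30 alone. That call was lost without any 1 of 9 libraries, all but PFOS20 replicate 3 and OBS20 replicates 2 and 3 (adjusted p = 0.055 to 0.15) and with no filter on low values (0.064). In PFOS20 the row was called without PFOS20 replicate 3, OBS20 replicate 2 or OBS20 replicate 3, and in OBS20 without OBS20 replicate 3. It was also called in PFOS20 under both other scalings, a pseudocount of 0.1, the filter at a mean of 5 TPM and the 6 libraries alone (adjusted p = 0.0063 to 0.048), and in OBS20 after quantile normalisation (0.037). The row ENSDARG00000093043 stood at 7.41 ± 1.13 TPM in PFOS20, 7.38 ± 2.22 in OBS20 and 8.10 ± 1.51 in OBS30, against 5.28 ± 0.215 TPM in control (SD, n = 3), with no call. Median-of-ratios scaling and quantile normalisation gave it a call in PFOS20 (adjusted p = 0.014 and 0.011) and in OBS30 (0.049 and 0.038). The remaining UGT2 rows tested, ugt2a5 and ugt2a6, stayed between 0.61 and 2.17 TPM in all libraries and were not called.

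In the UGT5 family only ugt5a2 (ENSDARG00000093640) was called in the fit of all libraries. It had 10.6, 7.15 and 9.48 TPM in PFOS20, 7.52, 10.9 and 6.91 TPM in OBS20 and 9.9, 11.2 and 8.92 TPM in OBS30, against 4.08, 5 and 2.79 TPM in control. All exposed libraries were above all control libraries. It rose by 1.03 ± 0.22 in PFOS20 (adjusted p = 0.0084) and 1.17 ± 0.22 in OBS30 (adjusted p = 0.0069), and its change in OBS20 was 0.93 ± 0.22 (adjusted p = 0.07). The OBS20 change was called with the filter at a mean of 5 TPM (adjusted p = 0.049), after quantile normalisation (0.035) and under median-of-ratios scaling (0.047). Its neighbours ugt5a1 and ugt5a4 had log2 changes of 0.34 ± 0.22 and 0.21 ± 0.24 in PFOS20, 0.42 ± 0.22 and 0.11 ± 0.24 in OBS20 and 0.62 ± 0.22 and 0.35 ± 0.24 in OBS30, without a call. The 4 ugt5b genes tested, ugt5b1 to ugt5b4, were not called in any exposure. Among them ugt5b4 was the second most abundant UGT of untreated larvae, and it had 18.5, 20.9 and 35.1 TPM in PFOS20, 20.9, 41.0 and 23 TPM in OBS20 and 25.0, 16.8 and 20.6 TPM in OBS30, against 32.9, 25.7 and 22.9 TPM in control. Its groups overlapped in every comparison. The ugt5c3, ugt5d1, ugt5f1 and ugt5g1 genes were not called either, and the ugt5g1 change was -0.28 ± 0.41 in PFOS20, -0.89 ± 0.41 in OBS20 and -1.24 ± 0.41 in OBS30 (adjusted p = 0.098). Without OBS20 replicate 3 that OBS30 change was called (adjusted p = 0.016). The OBS30 change of ugt5a1 was called after quantile normalisation (adjusted p = 0.049).

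The most abundant UGT was ugt1a7 (ENSDARG00000006220), of the family that in mammals conjugates bilirubin and phenols. It had 62.7, 59.2 and 83.1 TPM in PFOS20, 85.8, 118 and 105 TPM in OBS20 and 102, 84.4 and 85.9 TPM in OBS30, against 74.2, 58.0 and 51.3 TPM in control. Both OBS groups lay above control with no overlap and PFOS20 overlapped it, yet the changes of 0.16 ± 0.17 in PFOS20 (adjusted p = 0.57), 0.75 ± 0.17 in OBS20 (adjusted p = 0.072) and 0.57 ± 0.17 in OBS30 (adjusted p = 0.072) were not called. Without control replicate 2, the highest of the 3, the OBS30 change was called, and with the filter at a mean of 5 TPM the OBS20 change was (adjusted p = 0.048). The ugt1b5 gene had 16.5, 17.6 and 18.7 TPM in PFOS20, 17.4, 19.8 and 16.7 TPM in OBS20 and 15.2, 11.3 and 10.8 TPM in OBS30, against 16.5, 13.9 and 14.4 TPM in control. Its OBS20 libraries lay above control and its OBS30 libraries overlapped control, with no call in any group. Of the other UGT1 rows tested, ugt1b1 and ugt1b2 were not called, nor was the myelin lipid gene ugt8, at 4.9 ± 0.484 TPM in PFOS20, 3.79 ± 1.38 in OBS20 and 4.16 ± 0.453 in OBS30, against 3.59 ± 0.459 TPM in control (SD, n = 3). The PFOS20 change of ugt8 was called under median-of-ratios scaling (adjusted p = 0.027) and after quantile normalisation (0.015).

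**Figure D3:**
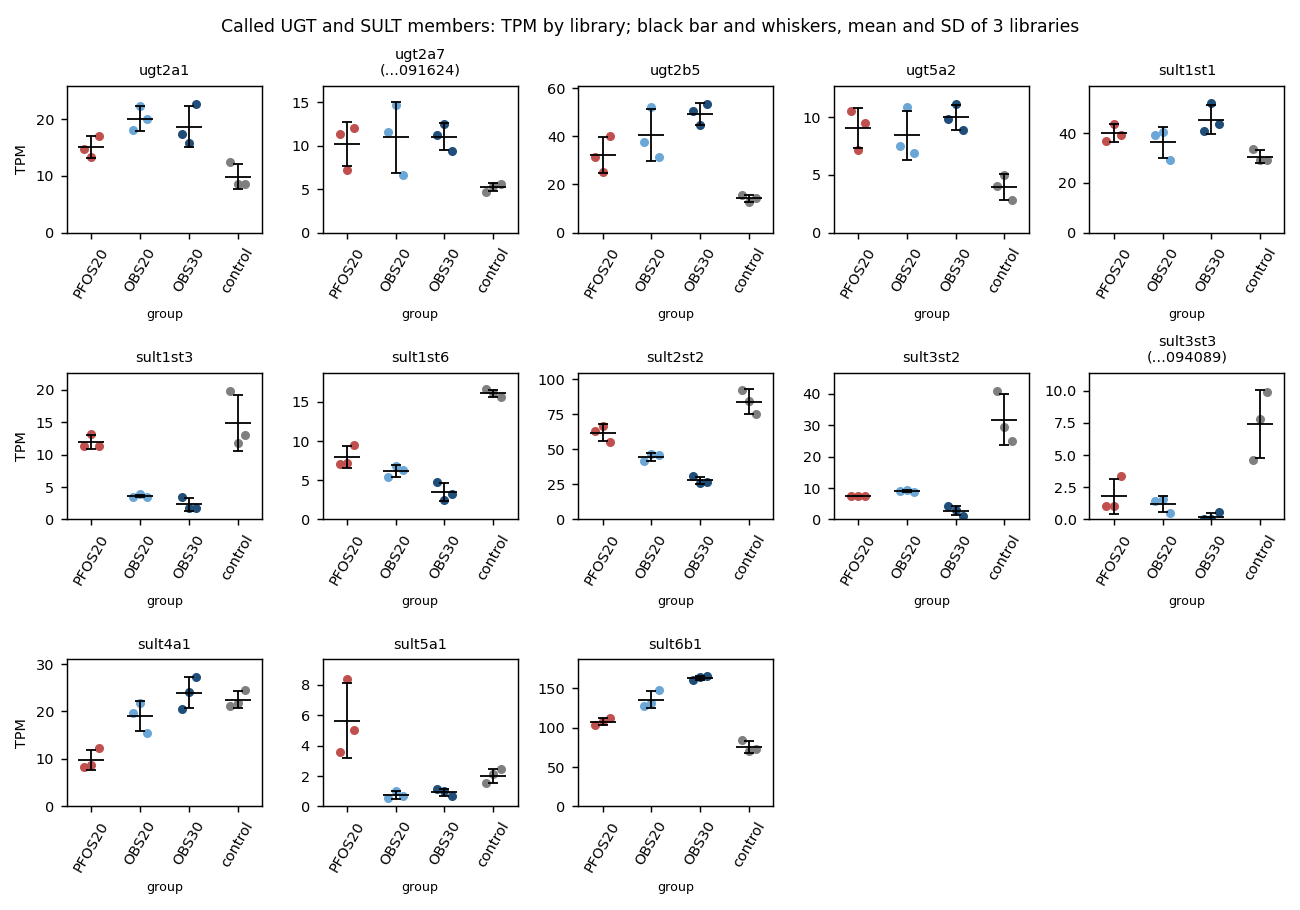
TPM in every library for 13 called members, by group, with the mean and SD of 3 libraries in black. In a comparison where the member was called, the groups compared did not overlap and the higher one averaged at least 5 TPM. Other groups of the same member may overlap. Each panel has its own linear axis from 0. In the sult3st2 panel the exposed libraries sit between 1.19 and 9.27 TPM, under the control libraries at 25.1 to 40.9 TPM.

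Among the SULT1 genes, which encode phenol sulfotransferases, sult1st6 (ENSDARG00000006811) fell in all 3 exposures. It had 7.05, 7.23 and 9.53 TPM in PFOS20, 5.4, 6.83 and 6.31 TPM in OBS20 and 4.73, 2.53 and 3.21 TPM in OBS30, against 16.6, 16.1 and 15.7 TPM in control. The exposed libraries all lay below control, by a factor of 2.03 in PFOS20, 2.61 in OBS20 and 4.62 in OBS30 in mean TPM. It fell by 0.95 ± 0.18 in PFOS20 (adjusted p = 0.0057), by 1.26 ± 0.18 in OBS20 (adjusted p = 0.0065) and by 1.96 ± 0.18 in OBS30 (adjusted p = 1.0e-04).

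The sult1st3 (ENSDARG00000018361) gene fell under OBS. It had 11.3, 13.1 and 11.3 TPM in PFOS20, 3.52, 3.86 and 3.54 TPM in OBS20 and 3.43, 1.71 and 1.8 TPM in OBS30, against 19.8, 11.8 and 13.1 TPM in control. Both OBS groups lay below every control library, while PFOS20 overlapped control. It fell by 1.74 ± 0.22 in OBS20 (adjusted p = 0.0029) and by 2.27 ± 0.22 in OBS30 (adjusted p = 1.3e-04), and its change in PFOS20 was -0.27 ± 0.22 (adjusted p = 0.44). The low-abundance sult1st2 (ENSDARG00000041540) had 0.93, 2.97 and 2.2 TPM in PFOS20, 0.71, 0.52 and 0.59 TPM in OBS20 and 0.71, 0.56 and 0.25 TPM in OBS30, against 5.46, 2.87 and 4.41 TPM in control, so that both OBS groups lay below control and PFOS20 overlapped it. It fell by 1.68 ± 0.28 in OBS20 (adjusted p = 0.014) and by 1.78 ± 0.28 in OBS30 (adjusted p = 0.0026), and its change in PFOS20 was -0.82 ± 0.28 (adjusted p = 0.065). The OBS20 call of sult1st2 was lost without control replicate 2 or 4 (adjusted p = 0.06 to 0.068) or with only the 6 libraries compared (0.062), and the PFOS20 change was called without PFOS20 replicate 3.

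Other SULT1 genes were higher in OBS30. The most abundant of them, sult1st1 (ENSDARG00000028275), had 36.8, 43.7 and 39.3 TPM in PFOS20, 39.2, 40.5 and 29.0 TPM in OBS20 and 40.7, 52.0 and 43.4 TPM in OBS30, against 33.5, 29.0 and 29.0 TPM in control. The PFOS20 and OBS30 libraries lay above control and OBS20 overlapped it. In OBS30 it rose by 0.55 ± 0.14 (adjusted p = 0.039), a call that was lost without any 1 of 8 libraries, which were every control and OBS30 library and PFOS20 replicates 3 and 4 (adjusted p = 0.052 to 0.15). Its changes in PFOS20 and OBS20 were 0.38 ± 0.14 (adjusted p = 0.095) and 0.23 ± 0.14 (adjusted p = 0.69), and the PFOS20 change was called without OBS20 replicate 3, under both other scalings and with only the 6 libraries compared (adjusted p = 0.0034 to 0.049). The sult1st5 (ENSDARG00000003475) gene, whose zebrafish enzyme sulfates thyroid hormone, had 0.15, 1.54 and 0.25 TPM in PFOS20, 1.77, 2.06 and 2.48 TPM in OBS20 and 3.34, 2.01 and 2.51 TPM in OBS30, against 0.23, 0.59 and 1.04 TPM in control. It rose in OBS30 by 1.17 ± 0.31 (adjusted p = 0.041), a call lost without any control or OBS30 library or OBS20 replicate 1 or 2 (adjusted p = 0.052 to 0.15). It was also lost with a pseudocount of 0.1 (adjusted p = 0.096), no filter (0.051), quantile normalisation (0.067) and median-of-ratios scaling (0.062). Its OBS20 libraries also lay above control, with a change of 0.96 ± 0.31 that was not called (adjusted p = 0.23), and in PFOS20 the change was -0.04 ± 0.31. The sult1st4, sult1st7 and sult1st9 genes stayed under 3.5 TPM in all libraries without a call.

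The 3 SULT2 genes, for hydroxysteroids, did not move alike. The sult2st2 (ENSDARG00000103785) gene, the most abundant SULT in control, had 63.4, 66.8 and 55.1 TPM in PFOS20, 41.5, 46.5 and 45.9 TPM in OBS20 and 30.7, 25.9 and 27.1 TPM in OBS30, against 92.6, 84.4 and 75.1 TPM in control. The 4 groups did not overlap one another, with control highest and OBS30 lowest. It fell by 0.44 ± 0.11 in PFOS20 (adjusted p = 0.022), by 0.89 ± 0.11 in OBS20 (adjusted p = 0.0028) and by 1.56 ± 0.11 in OBS30 (adjusted p = 2.2e-05). The PFOS20 call was lost without control replicate 2 or 3 or PFOS20 replicate 4 (adjusted p = 0.063 to 0.086), and under median-of-ratios scaling neither the PFOS20 change, -0.26 (adjusted p = 0.36), nor the OBS20 change, -0.80 (adjusted p = 0.079), was called. The sult2st1 gene had 30.6, 34.6 and 34.1 TPM in PFOS20, 30.7, 26.7 and 29.8 TPM in OBS20 and 27.3, 26.1 and 21.9 TPM in OBS30, against 31.2, 28.8 and 32.8 TPM in control, and it was not called in any exposure. The sult2st3 (ENSDARG00000028367) gene, at 3.6 ± 0.429 TPM in PFOS20, 2.02 ± 0.639 in OBS20 and 2.63 ± 0.337 in OBS30, against 3.05 ± 0.117 TPM in control (SD, n = 3), was not called against control either, except in PFOS20 after quantile normalisation (adjusted p = 0.034).

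The largest falls were in the SULT3 genes, a group related to an amine sulfotransferase of the mouse. The sult3st2 (ENSDARG00000093619) gene had 7.51, 7.52 and 7.54 TPM in PFOS20, 9.22, 9.27 and 8.77 TPM in OBS20 and 4.27, 2.99 and 1.19 TPM in OBS30, against 40.9, 29.5 and 25.1 TPM in control. Mean TPM was lower by a factor of 4.23 in PFOS20, 3.50 in OBS20 and 11.3 in OBS30. It fell by 1.92 ± 0.27 in PFOS20 (adjusted p = 0.0013), by 1.67 ± 0.27 in OBS20 (adjusted p = 0.013) and by 3.17 ± 0.27 in OBS30 (adjusted p = 6.2e-05). The OBS20 call was lost without control replicate 2 or OBS20 replicate 1 (adjusted p = 0.052 to 0.06). The sult3st3 row ENSDARG00000094089 had 1.01, 1.02 and 3.39 TPM in PFOS20, 1.46, 1.62 and 0.53 TPM in OBS20 and 0.03, 0 and 0.57 TPM in OBS30, against 4.65, 7.79 and 9.91 TPM in control. Exposed and control libraries did not overlap. It fell by 1.64 ± 0.37 in PFOS20 (adjusted p = 0.012), by 1.93 ± 0.37 in OBS20 (adjusted p = 0.028) and by 2.80 ± 0.37 in OBS30 (adjusted p = 9.0e-04). For this row the PFOS20 call was lost without control replicate 4 or PFOS20 replicate 2 or 3 (adjusted p = 0.051 to 0.053), and the OBS20 call without control replicate 3 or 4 or any OBS20 library (adjusted p = 0.053 to 0.12). With a pseudocount of 0.1 both calls were lost (adjusted p = 0.071 in PFOS20 and 0.17 in OBS20), and with only the 6 libraries compared that in OBS20 was (0.097).

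The other sult3st3 row, ENSDARG00000042920, was listed at 0 in all 3 OBS30 libraries and in control replicate 3, had 2.05, 1.75 and 3.37 TPM in PFOS20 and was not called. Without control replicate 3 its OBS30 change was called (adjusted p = 0.0027), as was its OBS20 difference from PFOS20 (0.016). That difference concerns a row that passed the filter only with the PFOS20 libraries, the group where it was highest. The sult3st5 (ENSDARG00000071495) gene had 0.27, 0.97 and 1.31 TPM in PFOS20, 0.35, 0.58 and 0.63 TPM in OBS20 and 0.22, 0.19 and 0.62 TPM in OBS30, against 2.61, 1.31 and 3.08 TPM in control. Both OBS groups lay below control. It fell in OBS30 by 1.28 ± 0.28 (adjusted p = 0.017), a call lost without control replicate 2 or 4 or OBS30 replicate 1 or 3 (adjusted p = 0.062 to 0.077). Its changes in PFOS20 and OBS20 were -0.85 ± 0.28 (adjusted p = 0.059) and -1.10 ± 0.28 (adjusted p = 0.1), and the PFOS20 change was called without control replicate 3 or PFOS20 replicate 4. The sult3st1 and sult3st4 genes stayed under 2.5 TPM and were not called.

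The single members of SULT4, SULT5 and SULT6 each had a pattern of their own. The sult4a1 (ENSDARG00000101967) gene encodes a brain sulfotransferase with no settled substrate. It had 8.36, 8.67 and 12.2 TPM in PFOS20, 19.8, 21.9 and 15.5 TPM in OBS20 and 20.6, 24.1 and 27.3 TPM in OBS30, against 21.1, 21.8 and 24.5 TPM in control. The PFOS20 libraries lay below all others, and it fell there by 1.14 ± 0.17 (adjusted p = 0.0016). Its changes in OBS20 and OBS30 were -0.24 ± 0.17 (adjusted p = 0.73) and 0.08 ± 0.17 (adjusted p = 0.85). Summed over 8 neuron markers, TPM was 314 to 472 in PFOS20, 641 to 847 in OBS20 and 609.7 to 710.0 in OBS30, against 851 to 873 in control. Of the 8, 7 fell in PFOS20, none was called in OBS20 and 2 fell in OBS30, and none was at 0 in all libraries. Of all rows tested 11.9% were called lower in PFOS20, 0.805% in OBS20 and 3.7% in OBS30. The part of the neuron markers in the sult4a1 result was not tested.

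The sult5a1 (ENSDARG00000007769) gene rose in PFOS20. It had 3.57, 8.38 and 5.01 TPM in PFOS20, 0.56, 1.04 and 0.67 TPM in OBS20 and 1.13, 1 and 0.69 TPM in OBS30, against 1.53, 2.1 and 2.43 TPM in control. The PFOS20 libraries lay above control and both OBS groups lay below it. It rose by 1.09 ± 0.25 in PFOS20 (adjusted p = 0.015), a call lost without control replicate 2 or PFOS20 replicate 3 (adjusted p = 0.053 to 0.058). Its changes in OBS20 and OBS30 were -0.78 ± 0.25 (adjusted p = 0.24) and -0.63 ± 0.25 (adjusted p = 0.18). The sult6b1 (ENSDARG00000086826) gene rose in all 3 exposures and had 103, 108 and 112 TPM in PFOS20, 127, 132 and 148 TPM in OBS20 and 161, 164 and 166 TPM in OBS30, against 83.8, 70.7 and 72.3 TPM in control. None of the 4 groups overlapped another. It rose by 0.51 ± 0.09 in PFOS20 (adjusted p = 0.0031), 0.84 ± 0.09 in OBS20 (adjusted p = 9.6e-04) and 1.11 ± 0.09 in OBS30 (adjusted p = 3.5e-05), and no alternative fit ended any of these calls.

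PFOS and OBS could be compared at 1 dose matched by mass, 20 mg/L. Molar amounts were not compared, and uptake is not given in the sources used here. Of the 42 members tested 2 were higher and 4 lower in OBS20 than in PFOS20, 14.3% of the members beside 9.77% of all rows tested, and all 6 were SULT. Of all rows tested 5.85% were called higher and 3.92% lower, and the libraries of the groups did not overlap for 23.3% of rows and for 14 of the 42 members. The sult5a1 gene was lower in OBS20, with a log2 difference of -1.87 ± 0.25 (95% interval -2.43 to -1.30, adjusted p = 0.0017). The sult1st3 gene was lower in OBS20, with 3.64 ± 0.191 TPM in OBS20 and 11.9 ± 1.05 TPM in PFOS20 (SD, n = 3), a difference of -1.47 ± 0.22 (95% interval -1.96 to -0.99, adjusted p = 0.0027). The sult4a1 gene was higher in OBS20, by 0.90 ± 0.17 (95% interval 0.53 to 1.28, adjusted p = 0.0082). Of the 8 neuron markers 7 were also higher in OBS20 than in PFOS20, and their part in the sult4a1 difference was not tested. Other markers differed too, with 3 of 9 hepatocyte markers lower and 1 higher, and 3 of 9 enterocyte markers lower. Of 6 skin markers 3 were higher and 1 lower, and of 8 pronephros markers 1 was lower. Their part in the member differences was not tested either. The sult5a1, sult1st3 and sult4a1 calls held without each library in turn, and in a fit of only the 6 libraries compared that of sult4a1 was lost (adjusted p = 0.084).

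The other calls between the compounds were smaller. The sult2st2 gene was lower in OBS20, with a difference of -0.46 ± 0.11 (adjusted p = 0.027), a call lost without PFOS20 replicate 2 or 3 or OBS20 replicate 1 or 2 (adjusted p = 0.054 to 0.12), under median-of-ratios scaling (0.089) and with only the 6 libraries compared (0.11). The sult2st3 gene was lower in OBS20, with a difference of -0.62 ± 0.17 (adjusted p = 0.045), and sult6b1 higher, with 0.32 ± 0.09 (adjusted p = 0.04). Each of these 2 calls was lost without any 1 of 11 libraries, the exceptions being OBS20 replicate 2 for sult2st3 (adjusted p = 0.052 to 0.14) and control replicate 2 for sult6b1 (adjusted p = 0.0503 to 0.12). With only the 6 libraries compared both were lost (adjusted p = 0.22 for sult2st3 and 0.16 for sult6b1), that of sult2st3 also with no filter (0.065) and that of sult6b1 under median-of-ratios scaling (0.38). No UGT was called between OBS20 and PFOS20 by limma with all libraries, and 2 of 22 had an unadjusted p below 0.05. Without OBS20 replicate 3, ugt1b1 was called higher in OBS20, at 0.59 (adjusted p = 0.045), and ugt5g1 lower, at -1.12 (adjusted p = 0.03). Over the 22 UGT the intervals of the difference ran from -1.52 to 1.14, and 20 lay within 1 log2 unit of 0. A p that misses the threshold does not show that the compounds act alike on these genes. For ugt2b5 the difference was 0.32 ± 0.20 (95% interval -0.12 to 0.75, adjusted p = 0.38), for ugt5a2 -0.10 ± 0.22 (95% interval -0.58 to 0.37, adjusted p = 0.83) and for ugt1a7 0.59 ± 0.17 (95% interval 0.20 to 0.97, adjusted p = 0.059). For sult1st2 and sult1st5 the differences were -0.86 ± 0.28 and 1.00 ± 0.31, called without PFOS20 replicate 2 for the first and PFOS20 replicate 3 for the second. The ugt1a7 difference was called without control replicate 2 or PFOS20 replicate 4 and with the filter at a mean of 5 TPM, and that of sult1st2 under median-of-ratios scaling. For sult3st2, low under both compounds, the difference was 0.24 ± 0.27 (95% interval -0.36 to 0.85, adjusted p = 0.66).

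**Figure D4:**
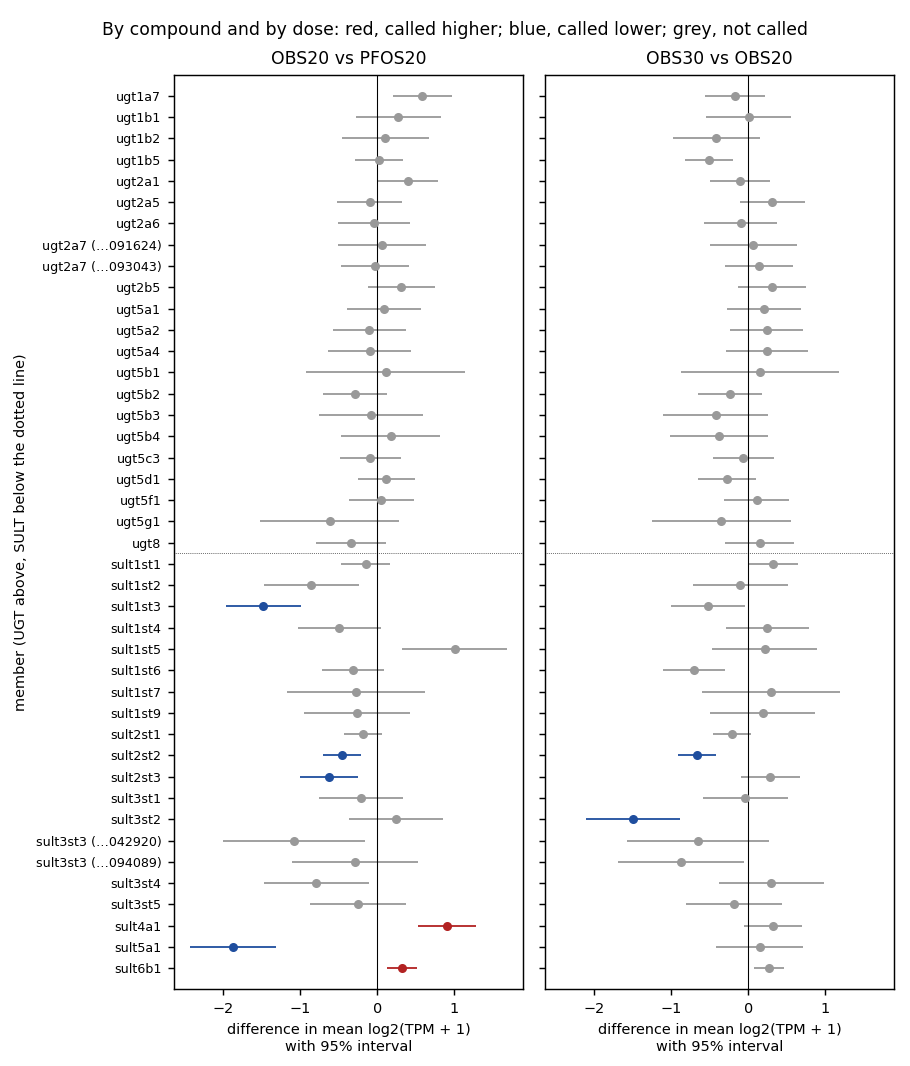
Difference in mean log2(TPM + 1) between OBS20 and PFOS20 (left) and between OBS30 and OBS20 (right) for the 42 members tested, with 95% intervals and calls coloured as red for higher, blue for lower and grey for not called. On the left the called points are all SULT, led by sult5a1 at -1.87 ± 0.25 (SE), and on the right sult3st2 and sult2st2 are the called points.

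Few members were called for the step from 20 to 30 mg/L OBS. A p that misses the threshold does not show that the doses act alike on the rest. The median of all rows was 0.10, and median-of-ratios scaling, which brings it near 0 by construction, gave 0.010. As deposited 70.5% of all calls were higher, under that scaling 65% and after quantile normalisation 56.0%. In OBS30 against OBS20 2 of 42 were lower and 0 higher, 4.76% of the members beside 1.58% of all rows tested, and 8 had an unadjusted p below 0.05. Of all rows tested 1.11% were called higher and 0.466% lower, and the libraries of the groups did not overlap for 16.8% of rows and for 9 of the 42 members. The sult3st2 gene was lower in OBS30, with a difference of -1.49 ± 0.27 (adjusted p = 0.025), with 2.82 ± 1.55 TPM in OBS30 and 9.09 ± 0.275 TPM in OBS20 (SD, n = 3). The sult2st2 gene was lower in OBS30, with a difference of -0.66 ± 0.11 (adjusted p = 0.017), with 27.9 ± 2.47 TPM in OBS30 and 44.6 ± 2.72 TPM in OBS20. The first call was lost without any OBS20 library or OBS30 replicate 3 (adjusted p = 0.059 to 0.078) and the second without OBS20 replicate 2 or OBS30 replicate 3 or 4 (adjusted p = 0.054 to 0.084). With only the 6 libraries compared neither was called (adjusted p = 0.18 for sult3st2 and 0.1 for sult2st2), and under median-of-ratios scaling sult2st2 was not (0.08). The sult6b1 gene had no overlap between the doses, with a difference of 0.27 ± 0.09 (95% interval 0.08 to 0.46, adjusted p = 0.19), and sult1st6 had a difference of -0.70 ± 0.18 (adjusted p = 0.1) that was called without OBS30 replicate 1. The doses of OBS30 and PFOS20 differ, so those groups were not compared.

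Members that lie side by side in the genome did not always move together. In the RefSeq gene table of the GRCz12tu assembly, used here for gene order only, 46 of the 52 members were matched and 28 of these had another member within 3 protein-coding genes. Some RefSeq symbols differ from the deposited ones. The sult3st3 row ENSDARG00000094089 is si:dkey-236e20.1 there, and only ENSDARG00000042920 is sult3st3. The ugt2a1 row is ugt2a3 and the ugt1a7 row ugt1a4. The sult2st1 and sult2st2 genes are neighbours, with changes in OBS30 of -0.30 ± 0.11 and -1.56 ± 0.11. In the run of sult1st7, sult1st9, sult1st1 and sult1st2, with sult1st3 close by, OBS30 changes were 0.22 ± 0.41, 0.53 ± 0.31, 0.55 ± 0.14, -1.78 ± 0.28 and -2.27 ± 0.22. The sult3st2, sult3st4 and sult3st5 genes and both sult3st3 rows form another run, where the OBS30 changes were all below 0, from -3.17 ± 0.27 for sult3st2 to -0.27 ± 0.31 for sult3st4. In PFOS20 this run was not all lower. There sult3st3 (ENSDARG00000042920) averaged 2.39 TPM against 1.63 in control and sult3st4 1.49 against 1.2, with overlap and no call. The 4 ugt5b genes tested form a run in which nothing was called in any of the 5 comparisons.

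The genes that feed, export and regulate conjugation were read from a list of 81 symbols, of which 77 were in the table and 69 were tested. Of these 8 rose and 4 fell in PFOS20, 3 rose and 1 fell in OBS20, and 8 rose and 3 fell in OBS30. Of all rows tested 18.3% were called in PFOS20, 1.49% in OBS20 and 8.42% in OBS30, so the PFOS20 count was near that of all rows. Called higher were 6.35%, 0.681% and 4.73% of all rows, and lower 11.9%, 0.805% and 3.7%, in the same order. The counts for each part of the list, given below, stand beside the same shares. The median change of the tested genes was 0.07 in PFOS20, -0.09 in OBS20 and 0.03 in OBS30, where the median of all rows tested was -0.13, -0.08 and 0.02. For UDP-glucuronate supply 0 of 9 were called in PFOS20 and OBS20, and 2 rose in OBS30. These were ugp2b, which makes UDP-glucose, with a change of 0.59 ± 0.14 (adjusted p = 0.024), and the phosphoglucomutase gene pgm1 with 0.31 ± 0.08 (adjusted p = 0.046). The dehydrogenase gene ugdh, which forms UDP-glucuronate itself, stood at 5.59 ± 3.33 TPM in PFOS20, 17.0 ± 8.12 in OBS20 and 14.3 ± 7.99 in OBS30, against 4.48 ± 0.849 TPM in control (SD, n = 3). Its libraries spread widely and it was not called, with adjusted p = 0.86 in PFOS20, adjusted p = 0.18 in OBS20 and adjusted p = 0.12 in OBS30.

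Of 15 genes for supply of the sulfate donor, 3 rose and 3 fell in PFOS20, none was called in OBS20, and 2 rose and 1 fell in OBS30. The PAPS synthase gene papss2b rose in PFOS20 by 0.57 ± 0.14 (adjusted p = 0.018) and its paralogue papss2a in OBS30 by 0.64 ± 0.16 (adjusted p = 0.037). The cysteine pathway genes cbsb and cdo1, whose products lead to inorganic sulfate, rose in PFOS20 by 0.49 ± 0.12 (adjusted p = 0.016) and 0.27 ± 0.08 (adjusted p = 0.048), and cbsb rose in OBS30 by 0.45 ± 0.12 (adjusted p = 0.041). The cystathionine synthase gene cbsa fell by 0.85 ± 0.24 in PFOS20 (adjusted p = 0.029) and by 1.13 ± 0.24 in OBS30 (adjusted p = 0.013). The sulfite oxidase gene suox fell in PFOS20 by 0.59 ± 0.16 (adjusted p = 0.029), and the sulfate transporter gene slc13a4 by 0.56 ± 0.17 (adjusted p = 0.041). Of 7 genes that hydrolyse conjugates none was called in any of the 5 comparisons.

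Of 20 transporters, 1 rose and 1 fell in PFOS20, 1 rose and 1 fell in OBS20, and 1 rose and 2 fell in OBS30. The export pump gene abcc2, whose product carries glucuronide and glutathione conjugates across the apical membrane, stood at 23 ± 1.95 TPM in PFOS20, 39.1 ± 4.32 in OBS20 and 41.0 ± 4.81 in OBS30, against 18.0 ± 2.78 TPM in control (SD, n = 3). It rose by 1.09 ± 0.14 in OBS20 (adjusted p = 0.0035) and 1.15 ± 0.14 in OBS30 (adjusted p = 5.9e-04), and it was higher in OBS20 than in PFOS20 by 0.74 ± 0.14 (adjusted p = 0.009). The pump gene abcg2a, whose mammalian counterpart exports sulfate conjugates, fell by 0.74 ± 0.14 in OBS20 (adjusted p = 0.029) and by 1.02 ± 0.14 in OBS30 (adjusted p = 0.0013). The multidrug pump gene abcb4 fell in OBS30 by 0.70 ± 0.18 (adjusted p = 0.041). In PFOS20 abcc6a rose by 0.66 ± 0.19 (adjusted p = 0.036) and the organic anion transporter gene slc22a6l fell by 0.74 ± 0.13 (adjusted p = 0.004).

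Of 18 regulators tested, 4 rose in PFOS20, 2 in OBS20 and 3 in OBS30, and none fell. The Nrf2 gene nfe2l2a, an activator of antioxidant and conjugation genes, rose by 0.66 ± 0.12 in PFOS20 (adjusted p = 0.0047) and 0.78 ± 0.12 in OBS30 (adjusted p = 0.0027), and its change in OBS20 was 0.35 ± 0.12 (adjusted p = 0.28). The 3 genes that follow were chosen after their values were seen. The paralogue nfe2l2b rose in PFOS20 by 1.74 ± 0.34 (adjusted p = 0.0057). The Nrf2 inhibitor genes keap1a and keap1b rose in all 3 exposures, keap1a by 0.67 ± 0.13 in PFOS20 (adjusted p = 0.0072), 0.92 ± 0.13 in OBS20 (adjusted p = 0.0069) and 1.19 ± 0.13 in OBS30 (adjusted p = 3.5e-04). For keap1b the rise was 0.47 ± 0.14 in PFOS20 (adjusted p = 0.038), 0.72 ± 0.14 in OBS20 (adjusted p = 0.03) and 0.94 ± 0.14 in OBS30 (adjusted p = 0.0018). The aryl hydrocarbon receptor gene ahr2 had log2 changes of 0.32 ± 0.21 in PFOS20, 0.09 ± 0.21 in OBS20 and 0.44 ± 0.21 in OBS30, and the xenobiotic receptor gene nr1i2 of 0.08 ± 0.35, -0.16 ± 0.35 and -0.08 ± 0.35 in the same order, none of them called. The gene cyp1a, a monooxygenase gene and target of the aryl hydrocarbon receptor, rose by 0.79 ± 0.15 in PFOS20 (adjusted p = 0.0054), 1.40 ± 0.15 in OBS20 (adjusted p = 0.0011) and 0.89 ± 0.15 in OBS30 (adjusted p = 0.0043).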

How the data were processed

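Poly(A) RNA of whole larvae was extracted with TRIzol and sequenced as paired-end TruSeq libraries, per the labels' protocols. The submitters' processing notes name HISAT2, StringTie, RSEM and GRCz11, without versions or roles. The authors deposited 1 table of TPM for 44667 rows, 32520 Ensembl genes and 12147 assembled loci, in 12 libraries of 4 groups, and it holds no read counts. From it, log2(TPM + 1) was fitted for rows with at least 1 TPM in at least 3 libraries, with limma 3.58.1 in R 4.3.3 (trended variance, 1 fit of all 12 libraries, 5 contrasts, Benjamini-Hochberg adjustment within each, two-sided). The fit was run on simulated data in which only genes at about 5 TPM or more in control were changed. Those data held no shifts of entire libraries, so they cover neither such shifts nor members under 5 TPM. The alternatives were a pseudocount of 0.1, other filters, quantile and median-of-ratios scaling, a replicate block, the 6 libraries compared alone, and each library left out. Every called member is given with statistics. Per-library values are given for the 3 most abundant of each family and for members without overlap between the groups of a called comparison, where the higher group averaged at least 5 TPM. Per-library values of other called or abundant members were added after their values were seen. The members, lists and rules were chosen with earlier results of these data known. Sequences were not used here.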

Additional observations from a re-analysis of the deposited data

Results flagged for a closer look

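These members had changes from control of opposite sign under OBS and PFOS at the same dose by mass, and the difference between the compounds was called by limma. For sult5a1 the change from control was -0.78 ± 0.25 in OBS20 and 1.09 ± 0.25 in PFOS20, of which only the second was called, and OBS20 minus PFOS20 was -1.87 (adjusted p = 0.0017). For sult2st3, a low-abundance hydroxysteroid sulfotransferase gene, the change was -0.44 ± 0.17 in OBS20 and 0.18 ± 0.17 in PFOS20, neither of them called, and OBS20 minus PFOS20 was -0.62 (adjusted p = 0.045). The sult5a1 difference was called under every alternative that gave it a value, while that of sult2st3 was lost without any 1 of 11 libraries, the exception being OBS20 replicate 2.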

How the results depend on the processing

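Sign was followed for 100 values, those of the called members and the 3 most abundant of each family in the 5 comparisons. The other members were not followed in this way. The 41 called values kept their sign under every alternative that gave them. Of the uncalled values 14, none above 0.285 in size, changed sign under at least 1 alternative. Among them were sult1st5 in PFOS20, sult4a1 in OBS30, and sult3st2 and ugt5a2 between OBS20 and PFOS20. Of the calls against control, 6 of 10 in PFOS20, 5 of 9 in OBS20 and 9 of 14 in OBS30 were kept without each library in turn, as were 3 of 6 between OBS20 and PFOS20 and 0 of 2 between OBS30 and OBS20. In every alternative that gave them a value 6, 2, 9, 2 and 0 of these calls were kept, in the same order of comparisons. The filter at a mean of 5 TPM gave no value for sult1st2, sult3st3 (ENSDARG00000094089) and sult5a1, whose kept calls are among these. Leaving out 1 library gave 8 to 12 called members in PFOS20, 6 to 9 in OBS20, 9 to 15 in OBS30, 3 to 6 between OBS20 and PFOS20 and 0 to 3 between OBS30 and OBS20. The OBS30 count of 9 came without control replicate 4. With only the 6 libraries compared, 5 members were called in OBS20, 2 between OBS20 and PFOS20 and 0 between OBS30 and OBS20. Under median-of-ratios scaling 1 was called between OBS30 and OBS20, and quantile normalisation gave 15 in PFOS20. Same-numbered replicates did not deviate together, with correlations of -0.115 to 0.101. Whether the numbers mark shared clutches or batches is not given in the labels and cannot be told from these correlations. With the replicate number as a block, 5 members were called in OBS20, 3 between OBS20 and PFOS20 and 0 between OBS30 and OBS20. The block lost 14 member calls. In PFOS20 it lost ugt2a1, and in OBS20 ugt2a1, sult1st2, sult1st6 (adjusted p = 0.068) and sult3st3 (ENSDARG00000094089). In OBS30 it lost ugt2a7 (ENSDARG00000091624), sult1st1, sult1st5 and sult3st5. The rest were sult2st2, sult2st3 and sult6b1 between OBS20 and PFOS20, and sult2st2 and sult3st2 between OBS30 and OBS20. Over all rows, the counts called with all libraries were 5610 in PFOS20, 456 in OBS20, 2584 in OBS30, 2996 between OBS20 and PFOS20 and 484 between OBS30 and OBS20, and the block gave 3634, 136, 1150, 1389 and 133 in the same order. Without OBS20 replicate 3 they were 8716, 505, 3965, 6491 and 338, and after quantile normalisation 7872, 603, 3931, 5051 and 803. With only the 6 libraries compared they were 6667, 109, 3491, 576 and 88. Precision is limited by 3 libraries a group and by unknown depth, above all for members under 5 TPM. The cause of a lost call was not tested.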
